A study of Homo sapiens with 18 samples.

Results

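The heat shock chaperones described here are 10 genes, HSPA1A, HSPA1B, HSPH1, DNAJB1, HSPB1, HSP90AA1, HSP90AB1, HSPD1, HSPE1 and HSPA8. They were taken by symbol from a table of read counts with 56609 genes, and all 10 were among the 31872 genes tested. The question was whether CpG changed them and how far they spread between replicates, since these transcripts are known to react to the handling of cells. RNA had been sequenced from HG3, MEC2 and PCL12, which are established cell lines of chronic lymphocytic leukemia, a malignancy of mature B cells. The study describes the lines as EBV-positive, and each line is a single cultured population, so replicates are not separate donors. The CpG-stimulated group of each line had received the oligonucleotide ODN-2006, a ligand of the endosomal DNA receptor TLR9, at 2.5 μg/ml for 4 h, and the unstimulated group had not. Each of the 6 groups had 3 replicates, 18 libraries in all, and a stimulated and an unstimulated library of the same number within a line form a pair.

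Chaperones hold unfolded proteins in solution and help them reach their folded state. When unfolded protein accumulates, after heat, oxidation or rough handling, the transcription factor HSF1 binds heat shock elements in their promoters and raises their transcription within minutes to hours. Some members, such as HSPA1A and HSPA1B, are known for strong induction, whereas others, such as HSPA8 and HSP90AB1, are made constantly in growing cells. Malignant B cells are known to depend on HSP90, which holds many kinases of B-cell receptor signalling in an active form.

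A heat shock element is an array of the unit GAA and its reverse complement TTC, alternating with 2 free bases between them. Promoter windows of RefSeq on GRCh38.p14, which run from 250 bases before to 50 bases after a start site, were found for 10 of the 10 members, in 16 windows. Both strands were searched for 3 alternating units, GAANNTTCNNGAA or TTCNNGAANNTTC, and for 2 units, GAANNTTC or TTCNNGAA, so that every match of 3 units also holds matches of 2. Arrays of 3 units stood in windows of 4 members, HSP90AA1, HSP90AB1, HSPD1 and HSPA8, against 0.608% of 27305 genes with a window. At least 2 units stood in 8 members, against 16.2% of those genes, and neither form was found in the windows of HSPH1 and HSPE1. The array of the neighbouring gene HSPD1, given below, lies just outside the HSPE1 window at chr2:197500129-197500428. The fragments below are shown because they hold these arrays, with the GAA and TTC units in capitals, and they are written 5′ to 3′ on the strand of the gene.
HSPA1A: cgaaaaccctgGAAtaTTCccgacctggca
HSPA1B: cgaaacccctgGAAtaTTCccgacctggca
DNAJB1, first match: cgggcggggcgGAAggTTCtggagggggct
DNAJB1, second match: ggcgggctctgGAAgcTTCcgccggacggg
HSPB1: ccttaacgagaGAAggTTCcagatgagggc
HSP90AA1: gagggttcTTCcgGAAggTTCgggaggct
HSP90AB1, first array: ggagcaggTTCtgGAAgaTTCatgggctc
HSP90AB1, second array: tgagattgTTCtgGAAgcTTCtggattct
HSPD1: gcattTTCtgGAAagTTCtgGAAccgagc
HSPA8, first array: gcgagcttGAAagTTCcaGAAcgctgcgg
HSPA8, second array: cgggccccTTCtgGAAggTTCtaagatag
On GRCh38.p14 the fragments of the neighbouring genes HSPA1A and HSPA1B lie at chr6:31815426-31815455 and chr6:31827622-31827651 on the plus strand. The fragments of DNAJB1 are adjacent, at chr19:14518456-14518485 and chr19:14518426-14518455 on the minus strand, and another window of the gene held 1 further match that is not shown. The fragment of HSPB1 is at chr7:76302480-76302509 on the plus strand. The array of HSP90AA1 is at chr14:102087112-102087140 on the minus strand, and those of HSP90AB1 are at chr6:44247770-44247798 and chr6:44247823-44247851 on the plus strand. HSPD1 held 4 alternating units at chr2:197500062-197500090 on the minus strand, 245 bases before the start site of a RefSeq window of the gene, although other annotated starts of HSPD1 lie further upstream and the fragment overlaps an annotated UTR. The arrays of HSPA8 are at chr11:123062346-123062374 and chr11:123062171-123062199 on the minus strand and also overlap an annotated UTR. The matches are a description of letters in these windows and were not measured as bound sites.

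Library totals lay between 20382943 and 67308932 counts, so that 3 counts, the limit a count of 0 allows, correspond to 0.0429 to 0.155 CPM, the unit that expresses each count relative to its library total. CPM values below are scaled with the trimmed mean of M values (TMM), and the limit and the binomial intervals below cover counting error only. The summed level of 5 B-cell markers lay between 1653 and 2604 CPM with all 5 counted in every library, that of 4 T-cell markers between 0.0298 and 2.42 CPM, of 3 NK-cell markers between 0.579 and 10.7 CPM, of 5 monocyte markers between 0.55 and 3.88 CPM, and of 3 fibroblast markers between 5.34 and 74.6 CPM. Of the fibroblast markers, COL1A2 and DCN averaged less than 1 CPM, so that sum is mostly COL1A1. In these bulk samples, fewer expressing cells and less RNA per cell cannot be told apart. A pair of libraries stood apart by their share of mitochondrial transcripts, which was 20.2% in HG3 unstimulated replicate 2 and 19.7% in MEC2 CpG replicate 2, against 2.82 to 9.28% in the other 16. PCL12 replicates 2 and 3 also held transcripts characteristic of MEC2 in both treatments, called MEC2 transcripts below, whose origin was not tested. In these libraries 45 genes had medians between 29.0 and 31.3% of the level found in MEC2. These genes were chosen outside the immunoglobulin genes because each MEC2 library had 20 CPM or more and PCL12 replicate 1 no more than 10% of the MEC2 mean, which fixes their low median there, 2.26 to 2.36%. Several comparisons between groups are given with and without these libraries, but the results by replicate number in PCL12 are not, since they cannot be had without its replicates 2 and 3. Without the 4 PCL12 libraries that held MEC2 transcripts, 1 library is left in each PCL12 group, which has no replicate of its own and is assumed to vary like the other groups.

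CpG did not bring any of the 10 chaperones past the test in any line. With edgeR's quasi-likelihood test and Benjamini-Hochberg adjustment, 0 of 10 members had an adjusted p under 0.05 in HG3, MEC2 or PCL12, and the adjusted p was 1 for every member. Over all genes the same threshold called 0.00314% in HG3, 0.00314% in MEC2 and 0% in PCL12, so that the background itself held almost no calls. At an unadjusted p under 0.05 the members also gave 0 calls in each line, by edgeR, DESeq2 and limma-voom, where edgeR called 3.73%, 2.46% and 2.09% of all genes. The definition of a differentially expressed gene used in the study, a nominal P under 0.01 with |Log2FC| of at least 1, took 0 members against 0.496%, 0.251% and 0.116% of all genes. The median Log2FC of the members was 0.12 in HG3, -0.01 in MEC2 and -0.00 in PCL12, where the median of all tested genes was 0, 0 and 0.02. Single libraries moved these medians, which reached -0.14 without HG3 CpG replicate 3 and 0.37 without HG3 unstimulated replicate 3, -0.56 without MEC2 CpG replicate 3 and 0.50 without MEC2 unstimulated replicate 3, and -0.27 without PCL12 CpG replicate 3 and 0.25 without PCL12 unstimulated replicate 3. For no member did the CpG-stimulated and unstimulated libraries of a line separate without overlap, which 3.72%, 4.72% and 4.55% of all genes did in HG3, MEC2 and PCL12.

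Averaged over the 3 lines, 0 of 10 members were called against 0.00941% of all genes, and the smallest unadjusted p was 0.159, for HSPB1. For the difference of the CpG effect between lines, 0 of 10 members were called in each comparison, against 0% for MEC2 against HG3, 0.00314% for PCL12 against HG3 and 0% for PCL12 against MEC2. Of 5 genes of the TLR9 response, 0 were called in HG3 (lowest adjusted p = 1), 1 in MEC2 and 0 in PCL12 (lowest adjusted p = 0.541, edgeR), and 2 on average over the lines, NFKBIZ and ZC3H12A. NFKBIZ, a nuclear regulator of NF-κB that TLR ligands are known to induce, had an average Log2FC of 1.52 (adjusted p = 0.000398 with edgeR), with 0.66 in HG3, 2.20 in MEC2 and 1.71 in PCL12. It passed the test of a single line in MEC2 (adjusted p = 0.0154 with edgeR). The 0 calls of members in HG3 and PCL12 therefore stand beside 0 calls of these control genes. At an unadjusted p under 0.05 (edgeR), however, 1, 4 and 3 of the 5 control genes passed in HG3, MEC2 and PCL12, against 0 members.

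With the replicate pairs as a block, edgeR called far more genes. The shares were 0.135% in HG3, 0.333% in MEC2, 0.0471% in PCL12 and 0.555% for the average over lines, and still 0 of 10 members. These are 43, 106, 15 and 177 genes, where limma-voom with the same block called 0, 8 and 3 in the lines. For the average limma-voom called 25 genes upward and 1 downward. It took 0 of 10 members, also at an unadjusted p under 0.05. The count was also 0 of 10 in each line without the 2 libraries rich in mitochondrial transcripts. Without the 4 PCL12 libraries that held MEC2 transcripts it was 0 of 10 too, which in PCL12 sets 1 library against 1 and says little. In the blocked edgeR fit the spread was shared across genes, with almost no weight on a gene's own pairs. Its intervals and p-values can therefore be too small for genes whose pairs disagree. The blocked 95% intervals of the average Log2FC reached from -0.65 to 0.50 for HSPA1A, and those of the other 9 members lay within -0.54 and 0.47. Only HSPA8 in HG3 and HSPB1 on average had an unadjusted p under 0.05 in the blocked edgeR fits of a line or of the average (3.59% and 4.54% of all genes). HSPA8 had a Log2FC of 0.75 (95% interval 0.28 to 1.21, adjusted p = 0.332 with edgeR) in HG3, and without the HG3 pair of replicate 2 it had 0.02 (-0.36 to 0.40). Its HG3 pair ratios were 0.03, 2.32 and 0.002, a spread that the first interval does not reflect. Its CpG effect in MEC2 differed from that in HG3 by -1.04 with the block (95% interval -1.68 to -0.40, adjusted p = 0.340 with edgeR) and that in PCL12 by -0.70 (-1.33 to -0.06, adjusted p = 1 with edgeR). Without that pair these differences were -0.31 and 0.03. HSPB1 had an average of -0.30 (95% interval -0.54 to -0.06, adjusted p = 0.650 with edgeR), and without that pair -0.14 (-0.35 to 0.07). Within lines the SD of its pair ratios was 0.80.

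**Figure D1:**
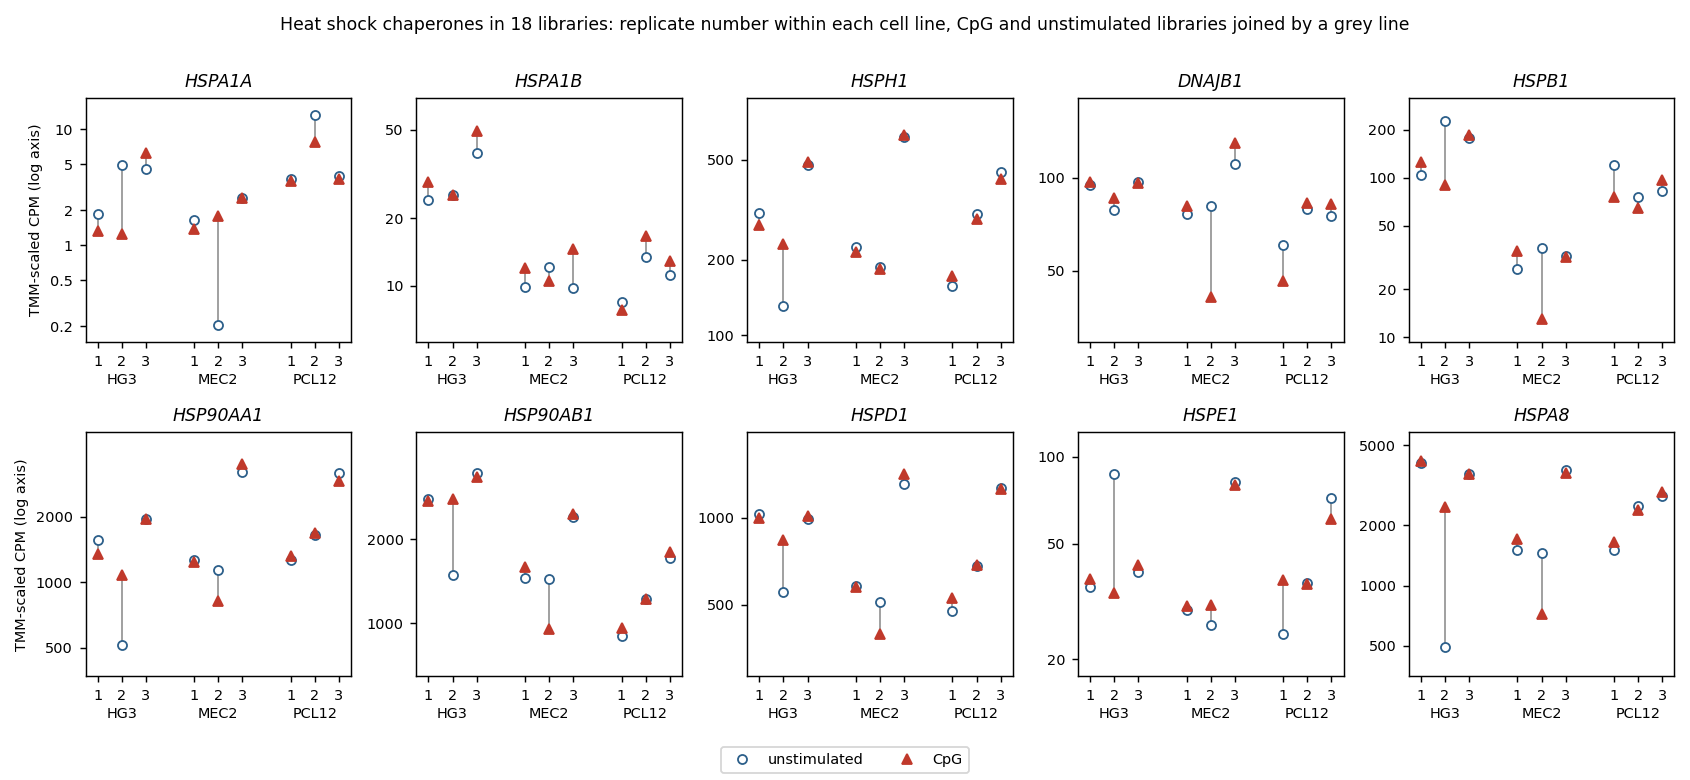
TMM-scaled CPM (log axis, a separate scale for each gene) of the 10 chaperones in all 18 libraries, by replicate number within each line, with red triangles for CpG-stimulated and open blue circles for unstimulated libraries and a grey line joining each pair. Most pairs lie almost on top of each other while the replicate numbers lie apart, as for HSPH1 in MEC2 at 631 and 617 CPM in replicate 3 against 184 to 224 CPM in the other replicates.

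HSPA1A and HSPA1B encode the stress-inducible cytosolic HSP70. They stand at chr6:31815543-31817946 and chr6:31827738-31830254 (GRCh38, GENCODE release 44). In HG3, HSPA1A stood at 1.33, 1.24 and 6.28 CPM in CpG replicates 1 to 3 and at 1.87, 4.90 and 4.58 CPM in the unstimulated replicates. In MEC2, HSPA1A stood at 1.39, 1.77 and 2.54 CPM after CpG and at 1.66, 0.204 and 2.56 CPM without it. In PCL12, HSPA1A stood at 3.59, 7.76 and 3.76 CPM after CpG and at 3.72, 13.3 and 3.95 CPM without it. The treatments overlapped in every line, and the highest and the lowest of the 18 libraries were both unstimulated, PCL12 replicate 2 and MEC2 replicate 2. The value of 0.204 CPM came from 5 counts, so the Log2 ratio of 2.81 in the second MEC2 pair rests on 72 against 5 counts.

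In HG3, HSPA1B stood at 29.1, 25.4 and 49.5 CPM after CpG and at 24.1, 25.6 and 39.2 CPM without it. In MEC2, HSPA1B stood at 12.03, 10.5 and 14.6 CPM after CpG and at 9.88, 12.2 and 9.74 CPM without it. In PCL12, HSPA1B stood at 7.80, 16.6 and 12.9 CPM after CpG and at 8.40, 13.4 and 11.1 CPM without it. HG3 was higher than both other lines in all its libraries, and CpG was the higher member in 6 of the 9 pairs. The average Log2FC after CpG was 0.21 (SE 0.19, 95% interval -0.18 to 0.59, adjusted p = 1.00 with edgeR). HSPA1A and HSPA1B share most of their coding sequence, and 72.4% of the 100-base windows of HSPA1A and 72.8% of those of HSPA1B occur in the transcript of another gene, but 0% within the last 400 bases of either. Their separate values are therefore uncertain as far as reads fell outside the 3′ end. HSPA1A made up 4.39 to 16.1% of the summed counts of both genes in HG3, 1.65 to 20.8% in MEC2 and 22.6 to 49.7% in PCL12. The lowest share, in MEC2 unstimulated replicate 2, had a 95% Wilson interval of 0.707 to 3.80%, and the highest, in PCL12 unstimulated replicate 2, one of 46.2 to 53.3%.

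HSPH1, at chr13:31134973-31162388, encodes HSP110, a nucleotide exchange factor that releases substrates from HSP70. In HG3, HSPH1 stood at 275, 231 and 490 CPM after CpG and at 307, 131 and 475 CPM without it. In MEC2, HSPH1 stood at 215, 184 and 631 CPM after CpG and at 224, 188 and 617 CPM without it. In PCL12, HSPH1 stood at 171, 290.5 and 419 CPM after CpG and at 156, 305 and 447 CPM without it. Replicate 3 was the highest in both treatments of every line. CpG and unstimulated libraries of a pair differed by at most 0.16 on the log2 scale except in HG3 replicate 2, where the ratio was 0.81.

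DNAJB1, at chr19:14514769-14560391, encodes the inducible HSP40 that stimulates the ATPase of HSP70. In HG3, DNAJB1 stood at 96.9, 86.3 and 95.8 CPM after CpG and at 94.9, 78.4 and 96.9 CPM without it. In MEC2, DNAJB1 stood at 80.8, 41.2 and 129 CPM after CpG and at 76.2, 81.2 and 110.3 CPM without it. In PCL12, DNAJB1 stood at 46.5, 82.8 and 82.1 CPM after CpG and at 60.7, 79.5 and 75.3 CPM without it. The 41.2 CPM belong to the MEC2 library rich in mitochondrial transcripts, and that pair had the lowest ratio of the gene, -0.98. Exons of DNAJB1, HSP90AA1 and HSPA8 overlap genes on the opposite strand, and whether the counting used the strand is not given in the sources used here. DNAJB1 had the narrowest interval of the members in HG3, with a Log2FC of 0.05 (95% interval -0.57 to 0.66).

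HSPB1, at chr7:76302673-76304295, encodes the small chaperone HSP27, which binds unfolding proteins without ATP. In HG3, HSPB1 stood at 125, 90.4 and 185 CPM after CpG and at 103, 226 and 178 CPM without it. In MEC2, HSPB1 stood at 34.9, 13.002 and 31.8 CPM after CpG and at 26.7, 36.3 and 32.3 CPM without it. In PCL12, HSPB1 stood at 75.4, 65.0 and 96.8 CPM after CpG and at 120.3, 75.8 and 82.3 CPM without it. The levels of HG3 and MEC2 did not overlap in either treatment. CpG was the higher member in 4 of 9 pairs, and the lowest ratios, -1.32 in HG3 and -1.48 in MEC2, were those of the pairs with a library rich in mitochondrial transcripts.

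HSP90AA1 and HSP90AB1 encode the inducible and the constitutive form of cytosolic HSP90, which matures kinases and steroid receptors. HSP90AA1 lies at chr14:102080742-102139699. In HG3, HSP90AA1 stood at 1349.6, 1078.5 and 1958 CPM after CpG and at 1564, 518 and 1955 CPM without it. In MEC2, HSP90AA1 stood at 1244, 824 and 3510.1 CPM after CpG and at 1268, 1144 and 3229 CPM without it. In PCL12, HSP90AA1 stood at 1322, 1681 and 2941 CPM after CpG and at 1264, 1652 and 3189 CPM without it. As with HSPH1, replicate 3 was the highest in both treatments of every line, whereas the treatments overlapped throughout.

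HSP90AB1 lies at chr6:44246166-44253888. In HG3, HSP90AB1 stood at 2758, 2801 and 3364 CPM after CpG and at 2790.5, 1494 and 3478 CPM without it. In MEC2, HSP90AB1 stood at 1597, 948 and 2477 CPM after CpG and at 1449, 1438 and 2398 CPM without it. In PCL12, HSP90AB1 stood at 956, 1223 and 1795 CPM after CpG and at 899.5, 1225 and 1719 CPM without it. The 1494 CPM in HG3 and the 948 CPM in MEC2 are the libraries rich in mitochondrial transcripts. In the 7 pairs without such a library the ratio of CpG to unstimulated lay between -0.05 and 0.14 on the log2 scale.

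HSPA8, at chr11:123057489-123063230, encodes HSC70, the HSP70 that cells make without stress. In HG3, HSPA8 stood at 4159, 2459 and 3588 CPM after CpG and at 4062, 494 and 3583 CPM without it. In MEC2, HSPA8 stood at 1697, 723 and 3637 CPM after CpG and at 1506, 1444 and 3767 CPM without it. In PCL12, HSPA8 stood at 1652, 2393 and 2936 CPM after CpG and at 1511, 2495 and 2779 CPM without it. HG3 unstimulated replicate 2 was 8.23-fold below the highest library of its group, the widest range of this gene. The Log2FC in HG3 was 0.33 (SE 0.67, 95% interval -1.11 to 1.76, adjusted p = 1 with edgeR), and it turned to -0.14 (95% interval -1.35 to 1.06) without that library.

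HSPD1 and HSPE1 encode HSP60 and HSP10, the chamber and the lid of the mitochondrial chaperonin. They are transcribed in opposite directions and span chr2:197486584-197516737 and chr2:197500140-197503449. In HG3, HSPD1 stood at 996, 837 and 1013 CPM after CpG and at 1033, 554 and 991 CPM without it. In MEC2, HSPD1 stood at 576, 394 and 1417 CPM after CpG and at 579, 509 and 1313 CPM without it. In PCL12, HSPD1 stood at 527, 687 and 1257 CPM after CpG and at 476, 681 and 1264 CPM without it. In MEC2 and PCL12 replicate 3 was the highest in both treatments, and in HG3 it lay beside replicate 1.

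In HG3, HSPE1 stood at 37.8, 33.8 and 42.3 CPM after CpG and at 35.6, 86.8 and 39.9 CPM without it. In MEC2, HSPE1 stood at 30.6, 30.8 and 79.8 CPM after CpG and at 29.5, 26.3 and 81.9 CPM without it. In PCL12, HSPE1 stood at 37.4, 36.4 and 60.9 CPM after CpG and at 24.5, 36.8 and 71.8 CPM without it. In MEC2 both genes of the chaperonin were highest in replicate 3, whereas in HG3 unstimulated replicate 2 HSPE1 was the highest of its group and HSPD1 the lowest. HSPE1 overlaps a readthrough transcript with MOB4 on the same strand, with which it shares 20.5% of its 100-base windows, so its counts may be split between both genes.

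The replicate pairs gave 9 ratios for each gene. In the 7 pairs without a library rich in mitochondrial transcripts, 50 of 70 ratios lay within 0.2 of 0 on the log2 scale. For the 9 members other than HSPA1A this was 74.6%, against 61.8% for all genes averaging 10 CPM or more. HSPH1, HSP90AB1, HSPD1 and HSPA8 lay within that limit in 7 of 7 pairs, HSP90AA1 in 6, and DNAJB1 and HSPE1 in 5. HSPA1B, the only member with 6 of 7 ratios above 0, lay within it in 1 and had a mean ratio of 0.27 ± 0.20 (SD, n = 7). In the HG3 pair of replicate 2 the members split. HSPA8 had a ratio of 2.32, HSP90AA1 of 1.06 and HSP90AB1 of 0.91, whereas HSPA1A had -1.93, HSPE1 -1.36 and HSPB1 -1.32. In the MEC2 pair of replicate 2, whose CpG library is the mitochondria-rich one, the members split as well. HSPB1 had -1.48, HSPA8 -0.998 and DNAJB1 -0.98, whereas HSPA1A had 2.81, from 72 against 5 counts, and HSPE1 0.23. The part of the mitochondrial share in these ratios was not tested.

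**Figure D2:**
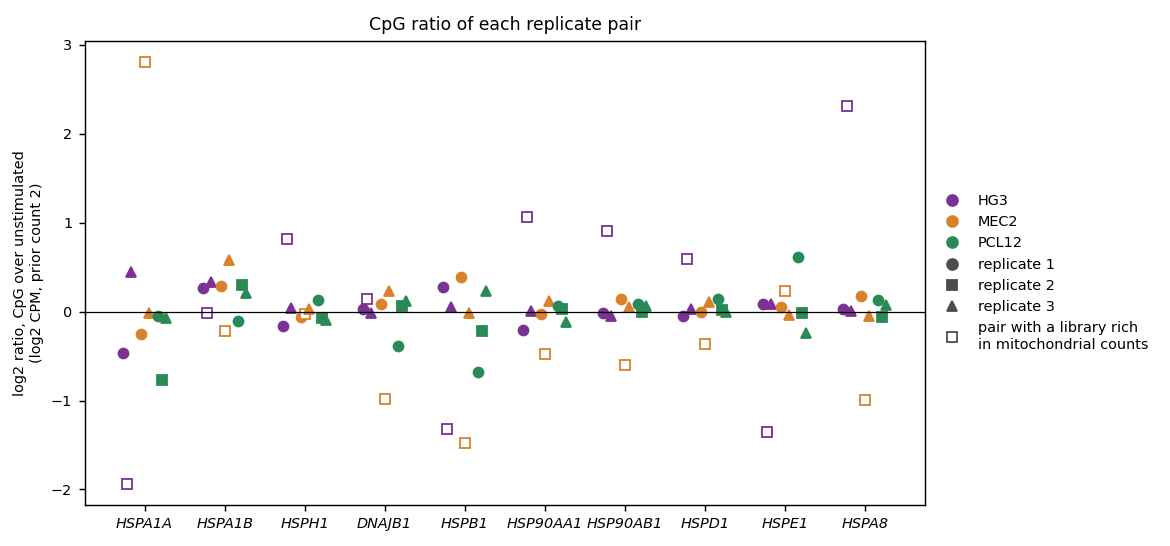
Log2 ratio of the CpG-stimulated over the unstimulated library for each of the 9 replicate pairs and each chaperone, with colors for the cell lines, shapes for the replicate numbers and open squares for the pairs with a library rich in mitochondrial counts. The filled symbols gather near 0, and the widest ratios, from -1.93 to 2.81, are open squares.

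The spread between replicates was wide for most members. After the group means had been removed, the SD of log2 CPM was 1.08 for HSPA1A, 0.39 for HSPA1B, 0.82 for HSPH1 and 0.42 for DNAJB1. It was 0.50 for HSPB1, 0.81 for HSP90AA1, 0.50 for HSP90AB1, 0.66 for HSPD1, 0.68 for HSPE1 and 0.95 for HSPA8. The median over the members was 0.67, against 0.35 for the 9306 genes averaging 10 CPM or more and 0.68 for all tested genes, most of which have few counts. Of the 10 SDs, 8 were above the 75th and 6 above the 90th percentile of the genes with at least 10 CPM, although HSPA1A itself had a mean of only 3.69 CPM. HSPA1B, at the 60.6th percentile, and DNAJB1, at the 68.2nd, were nearest to the typical gene, although both are stress-inducible. HSPA8, counted as constitutive, stood at the 97.8th percentile.

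For most members the larger part of the spread lay between replicate numbers. Each library of a pair deviates from the pair mean by 50% of the CpG ratio, so the SD of the pair means within lines was set beside the SD of these deviations, and libraries that did not go in pairs would have 50% of their variance between pairs. In the 7 pairs without a library rich in mitochondrial transcripts, the pair means of HSPH1 had an SD of 0.77 and the deviations one of 0.06. HSPD1 had 0.65 against 0.04, HSP90AA1 0.69 against 0.06, HSPA8 0.54 against 0.05 and HSP90AB1 0.42 against 0.02. The share of the variance between pairs ran from 72.3% for HSPB1 and 91.0% for DNAJB1 to 99.7% for HSP90AB1. Its median over the members was 97.1%, against 83.7% for the genes averaging 10 CPM or more.

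Over all 9 pairs the median share was 84.2%, against 72.1% for the genes averaging 10 CPM or more. It was 96.5% for HSPH1, 96.3% for HSPD1, 92.7% for HSP90AA1, 86.8% for HSPA1B, 84.8% for HSP90AB1 and 83.5% for HSPE1. HSPA8 had 80.1%, DNAJB1 75.9% and HSPA1A 67.8%, the last below that of the abundant genes. HSPB1 alone fell under 50%, with 35.3%, an SD of 0.29 for the pair means and of 0.40 for the deviations. The SD of the HSPA8 ratio moved from the 97.2nd percentile of the abundant genes over 9 pairs to the 8.91st over 7.

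**Figure D3:**
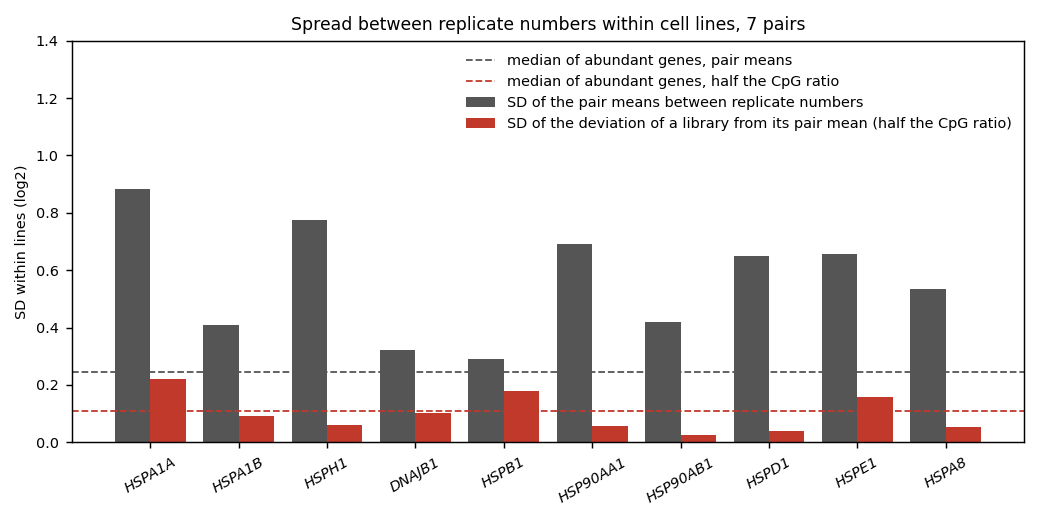
SD on the log2 scale, within cell lines, of the pair means (grey bars) and of the deviation of a library from its pair mean, 50% of the CpG ratio (red bars), over the 7 replicate pairs without a library rich in mitochondrial counts, with dashed lines for the medians of genes averaging 10 CPM or more. The grey bar is the taller for every chaperone in these 7 pairs, as for HSPH1 with 0.77 against 0.06, whereas over all 9 pairs, which are not drawn, HSPB1 has 0.29 against 0.40.

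Replicate 3 tended to be the highest. Its pair mean was the highest of the line for 7 members in HG3, 10 in MEC2 and 6 in PCL12, where 43.96%, 39.95% and 43.6% of the genes with at least 10 CPM were highest in replicate 3. It was the highest in both treatments for 4, 8 and 6 members, against 32.0%, 28.1% and 25.3% of those genes. In MEC2, replicate 3 exceeded the mean of replicates 1 and 2 by 3.16-fold after CpG and 3.00-fold without it for HSPH1. For HSP90AA1 in MEC2 these folds were 3.39 and 2.68, for HSPA8 3.01 and 2.55, for HSPD1 2.92 and 2.41, and for HSPE1 2.60 and 2.94. The other members had lower folds in most cases, with 1.95 and 1.66 for HSP90AB1, 2.12 and 1.401 for DNAJB1, 1.61 and 2.75 for HSPA1A and 1.33 and 1.02 for HSPB1. HSPA1B had 1.29 after CpG and 0.884 without it, where replicate 3 was the lowest library. In HG3 the widest of these folds was that of HSPA1A after CpG, 4.88, from 6.28 CPM against 1.33 and 1.24 CPM, while its unstimulated fold was 1.35.

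A test of the replicate number within a line (edgeR's quasi-likelihood test with the pairs as block, Benjamini-Hochberg adjustment, chosen after the data had been seen) called 3 members in HG3, where it called 8.77% of all genes and 23.2% of the genes averaging 10 CPM or more, as 9 of the 10 members do. These were HSPH1, HSP90AA1 and HSPA8. The test used a spread shared across genes, with almost no weight on the 6 residual degrees of freedom of the gene itself. Its p-values can therefore be far too small, and the counts are a description. In MEC2 it called 7 members, HSPH1, DNAJB1, HSP90AA1, HSP90AB1, HSPD1, HSPE1 and HSPA8, against 5.59% of all genes and 14.7% of those averaging 10 CPM or more, with the smallest adjusted p of 5.59e-11 for HSPH1. In PCL12 it called 4, HSPH1, HSP90AA1, HSPD1 and HSPE1, against 3.62% and 8.73%. The 3 of 10 in HG3 lie near the share of the abundant genes there. HSPH1 and HSP90AA1 were called in all 3 lines, and HSPA1A, HSPA1B and HSPB1 in none. Without the libraries rich in mitochondrial transcripts the counts were 6, 8 and 9 members, against 9.61%, 12.1% and 13.5% of all genes, and HSPA1A was then called in every line. The share of the genes averaging 10 CPM or more was not taken in this setting. PCL12 lost no library here, so its rise from 4 to 9 members came with the refit alone.

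In PCL12 the MEC2 transcripts moved with the replicate number too, and their part in the PCL12 values was not tested. Replicates 2 and 3, with 31.1% and 31.3% of the MEC2 level in the unstimulated libraries, stood at 681 and 1264 CPM for HSPD1 and at 1652 and 3189 CPM for HSP90AA1.

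Among the other chaperone and co-chaperone genes of the cytosol, 43 were tested, and CpG called 0 of them upward and 0 downward in HG3, MEC2 and PCL12, with 1, 0 and 0 at an unadjusted p under 0.05 (edgeR). Over all genes 0.00314%, 0.00314% and 0% were called, and 3.73%, 2.46% and 2.09% at the unadjusted threshold, so these counts lie near background. The median Log2FC of this list was 0.07, -0.02 and 0.04. The 8 mitochondrial chaperones and proteases, the 14 chaperones and stress genes of the endoplasmic reticulum, and the 6 genes of a list of heat shock factors, HSBP1, HSPBAP1 and SERPINH1 also gave 0 calls in each line. By replicate number the cytosolic list gave 5 of 43 calls in HG3, 24 in MEC2 and 9 in PCL12, against 8.77%, 5.59% and 3.62% of all genes and 23.2%, 14.7% and 8.73% of those averaging 10 CPM or more. The 5 of 43 in HG3 lie below the share of the abundant genes there. These calls and the p-values below come from the same test with a spread shared across genes. In MEC2 the smallest adjusted p for the replicate number (edgeR) were 3.36e-14 for FKBP4, a co-chaperone of HSP90, 1.06e-06 for CCT3, 1.47e-05 for CCT4 and 1.98e-05 for CCT7, subunits of the cytosolic chaperonin that folds actin and tubulin, and 2.76e-05 for AHSA1, an activator of the HSP90 ATPase. Of the 37 genes of the list with at least 10 CPM, replicate 3 had the highest pair mean for 21 in HG3, 32 in MEC2 and 31 in PCL12. This compares with 43.96%, 39.95% and 43.6% of all genes with at least 10 CPM. Without the libraries rich in mitochondrial transcripts the calls were 4, 26 and 29 of 43, against 9.61%, 12.1% and 13.5% of all genes. The share of the abundant genes was again not taken, and all PCL12 libraries were kept.

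Unstimulated levels differed between the lines for HSPA1B and HSPB1. HSPB1 was lower in MEC2 than in HG3, with means of 31.7 ± 4.78 against 169 ± 61.7 CPM (SD, n = 3 each) and a Log2FC of -2.41 (SE 0.35, adjusted p = 1.97e-05 with edgeR). HSPA1B was lower in MEC2 than in HG3, with 10.6 ± 1.36 against 29.6 ± 8.30 CPM and a Log2FC of -1.48 (SE 0.33, adjusted p = 0.0029 with edgeR). These 2 of 10 members, both lower in MEC2, compare with 9.78% of all genes called, or 4.97% called as lower. Both also separated the lines without overlap, as 22.2% of all genes did.

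In PCL12 against HG3, 1 of 10 members was called, against 9.44% of all genes and 4.57% called as lower. This was HSPA1B, with 10.99 ± 2.52 CPM in PCL12 and a Log2FC of -1.43 (SE 0.33, adjusted p = 0.00406 with edgeR). Without the 4 PCL12 libraries that held MEC2 transcripts, with 1 unstimulated PCL12 library left and the spread taken from the other groups, the Log2FC was -1.80 (adjusted p = 0.0429 with edgeR). When the counts of HSPA1A and HSPA1B were added, the sum had a Log2FC of -0.90 (adjusted p = 0.106 with edgeR), so that the call was lost for PCL12. In MEC2 against HG3 the sum stayed past the threshold at -1.47 (adjusted p = 0.00501). HSP90AB1 had a Log2FC of -1.01 in PCL12 against HG3 (95% interval -1.73 to -0.30, adjusted p = 0.0672 with edgeR). Without HG3 unstimulated replicate 2 it was -1.27 (adjusted p = 0.0187 with edgeR). DESeq2, limma-voom and edgeR with a replicate block also took HSP90AB1 past the threshold. With that 1 PCL12 library its Log2FC was -1.51.

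In PCL12 against MEC2, 1 of 10 members was called, against 2.05% of all genes and 1.53% called as higher, and it was again HSPB1. Its mean was 92.8 ± 24.0 CPM in PCL12 and its Log2FC 1.55 (SE 0.34, adjusted p = 0.00991 with edgeR). The adjusted p was 0.0853 without MEC2 unstimulated replicate 1 and 0.0912 without PCL12 unstimulated replicate 1, with a Log2FC of 1.43 and 1.31. With PCL12 unstimulated replicate 1 alone, left when the libraries with MEC2 transcripts are taken out, the Log2FC was 1.94 (adjusted p = 0.0185 with edgeR, spread from the other groups). HSPA1A had a Log2FC of 2.23 with means of 6.99 ± 5.47 and 1.48 ± 1.19 CPM (95% interval 0.70 to 3.75, adjusted p = 0.157 with edgeR), and with that 1 PCL12 library 1.35 (adjusted p = 0.777). It was 1.36 without PCL12 unstimulated replicate 2, 1.72 without MEC2 unstimulated replicate 2, the library with 5 counts, and 2.87 without MEC2 unstimulated replicate 3, with an adjusted p of 0.105 to 0.610 in the fits without 1 library (edgeR). HSPA1A and HSPB1 separated these lines without overlap, as 17.3% of all genes did. In order of level, HSPB1 ran from HG3 over PCL12 to MEC2, and its neighbours HG3 and PCL12 did not differ past the threshold (Log2FC -0.87, 95% interval -1.55 to -0.18, adjusted p = 0.11 with edgeR). The 3 comparisons share their unstimulated libraries and are not independent. Of the 43 other cytosolic chaperones and co-chaperones, 1 was higher and 2 were lower in MEC2 than in HG3, 1 was higher and 1 lower in PCL12 than in HG3, and 0 were called between PCL12 and MEC2 (1 at an unadjusted p under 0.05). Over all genes 9.78%, 9.44% and 2.05% were called, and no difference of the list from this background was tested. FKBP5, a co-chaperone of HSP90 in steroid receptor complexes, had a Log2FC of -1.27 in MEC2 and of -1.27 in PCL12 against HG3, HSPBP1, an exchange factor of HSP70, -1.13 in MEC2, DNAJA4 5.998 in MEC2 and HSPA2 2.79 in PCL12, all with an adjusted p under 0.05 (edgeR). The remaining members, HSPH1, DNAJB1, HSP90AA1, HSPD1, HSPE1 and HSPA8, were not called between any lines, and the intervals of HSPA8 reached from -1.71 to 1.45.

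**Figure D4:**
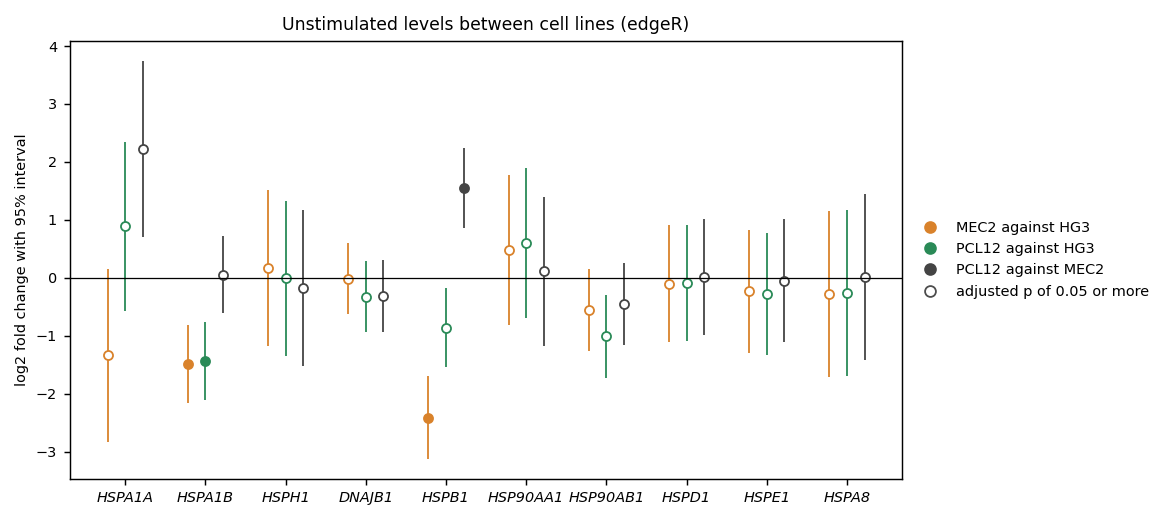
Log2 fold change between the unstimulated libraries of the cell lines for each chaperone, as points with 95% intervals (edgeR, 3 libraries a line), filled where the adjusted p is under 0.05. HSPB1 in MEC2 against HG3, at -2.41, lies farthest from 0 among the filled points, and the intervals of HSPH1, DNAJB1, HSP90AA1, HSPD1, HSPE1 and HSPA8 all span 0.

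Across the 18 libraries, with group means removed, the members were compared with the mean of the inducible genes HSPA1A, HSPA1B, HSPH1 and DNAJB1. Pearson's r was 0.78 for HSP90AB1, 0.77 for HSP90AA1, 0.73 for HSPD1, 0.66 for HSPA8, 0.51 for HSPE1 and 0.30 for HSPB1. Each inducible gene against the mean of the other 3 gave 0.75 for HSPH1, 0.65 for DNAJB1, 0.64 for HSPA1B and 0.44 for HSPA1A. Over the genes with at least 10 CPM the median was 0.13 and the 90th percentile 0.56. The gene most like the inducible mean was DNAJA1, another HSP40 of the cytosol, with 0.89, and the next were ARSB with 0.87, HERC5 with 0.86, SFT2D1 with 0.86 and MREG with 0.86. GPR183 had 0.86, BCAT1, NIP7 and PSMD7 each 0.85, and CASP1 0.84. Without the 2 libraries farthest from the median, MEC2 CpG replicate 3 and HG3 CpG replicate 3, DNAJA1 had 0.87, but only 1 of the 10 leading genes remained among the first 10. The points share libraries and depth, so these values are a description only.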

How the data were processed

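The authors deposited raw counts, the number of reads per gene symbol in each of the 18 libraries, without normalization. The labels name a Promega RNA kit and Lexogen stranded QuantSeq libraries, the study's methods a Qiagen kit and single reads of 100 nt. The submitters' processing notes name Trimmomatic, STAR, featureCounts and hg38, and neither the annotation nor the treatment of duplicates is given in the sources used here. Reads that are PCR copies make counts look more precise than they are. With reads from the 3′ end of transcripts, CPM values of different genes were not compared with each other. The exception is the share of HSPA1A in the summed counts of HSPA1A and HSPA1B.

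Of the 42248 genes with a count, 31872 had a sum of at least 10 and were tested. TMM scaling was applied to the deposited counts in edgeR 4.0.16 (R 4.3.3), and a model of 6 group means with robust quasi-likelihood fits left 12 residual degrees of freedom. All tested genes entered the Benjamini-Hochberg adjustment. Log2 CPM used a prior count of 2. Alternatives were DESeq2 1.42.0, limma-voom 3.58.1, other scalings and filters, HSPA1A and HSPA1B summed, a replicate block and each library left out. The methods were tested on simulated data. Replicates differed by more than sampling noise. The labels number them without naming separate cultures, so P values measure the spread between these samples, which may be technical. In the edgeR fit with the pairs as block, that spread was almost entirely shared across genes.

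By the design text of the series, a stimulated and an unstimulated sample belong to every replicate number, which therefore pairs the libraries of a line. Over the genes with at least 10 CPM, deviations from the group means of same-numbered libraries correlated with r between 0.13 and 0.76. In MEC2, CpG replicate 1 correlated more with unstimulated replicate 2 (0.54) than with its own number (0.30), and CpG replicate 2 more with unstimulated replicate 1 (0.49) than with its own (0.13).

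The members, gene lists and tests were chosen with earlier results of these data known. The 10 members are named in every case, with up to 5 genes of each other list that had the smallest P past an adjusted p of 0.05 and the 10 genes most like the inducible members. The lists were 43 cytosolic chaperones and co-chaperones, 8 mitochondrial chaperones and proteases, 14 chaperones and stress genes of the endoplasmic reticulum, 6 genes of heat shock factors, HSBP1, HSPBAP1 and SERPINH1, 18 immediate early genes, 10 genes of metal and oxidative stress and 5 genes of the TLR9 response. Positions are those of GENCODE release 44, and promoter windows those of RefSeq.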

Additional observations from a re-analysis of the deposited data

How the results depend on the processing

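The counts of 0 members for CpG in each line, for the average over lines and for the differences between lines held under all 12 or 13 alternatives and all 18 fits without 1 library, and the 2 members called in MEC2 against HG3 remained 2 under 10 alternatives and 18 such fits. For PCL12 against HG3, 1 member became 2 with DESeq2, 2 with limma-voom, 2 with the replicate block and 2 without the libraries rich in mitochondrial counts, where HSP90AB1 joined HSPA1B, 3 without a filter and 0 with HSPA1A and HSPA1B summed. Leaving out 1 library gave 1 to 2, with 2 reached without HG3 unstimulated replicate 1 or 2, MEC2 CpG replicate 2 or 3, or PCL12 unstimulated replicate 3. For PCL12 against MEC2, 1 member became 2 with DESeq2 and 2 without a filter, where HSPA1A joined HSPB1 with adjusted p of 0.0307 and 0.00881, and leaving out 1 library gave 0 to 1, with 0 without MEC2 unstimulated replicate 1 or PCL12 unstimulated replicate 1. The cause was not tested. Between unstimulated lines the replicate block gave each replicate number an effect common to all lines, although the labels do not join numbers across lines. The replicate block changed no other call of a member at an adjusted p under 0.05. By the nominal rule of the study it took 1 member in place of 0 for the difference of the CpG effect between MEC2 and HG3, which is HSPA8, and 1 in place of 2 for PCL12 against HG3. The median SD between replicates, 0.67, lay between 0.60 and 0.70 without 1 library and between 0.58 and 0.68 under the other settings. Of the 10 genes most like the inducible chaperones, 1 remained without the 2 libraries farthest from the median and 0 with the pairing removed, that is with deviations centred within replicate pairs.

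The median Log2FC of the members after CpG turned from 0.12 to -0.08 in HG3 and from -0.01 to 0.28 in MEC2 without the 2 libraries rich in mitochondrial counts, and without 1 library it lay between -0.14 and 0.37 in HG3. For MEC2 this range was -0.56 to 0.50, for PCL12 -0.27 to 0.25. Depth limits HSPA1A, which had 5 counts in MEC2 unstimulated replicate 2. HSPA8, at 494 CPM or more in each library, still had an interval from -1.11 to 1.76 in HG3.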

Other observations

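Other stress genes were described by the replicate in which their pair mean was highest, and no difference between lists was tested. All 14 genes of the endoplasmic reticulum list, which holds 12 chaperones and folding enzymes besides the transcription factor DDIT3 and the degradation factor HERPUD1, had their highest pair mean in HG3 in replicate 1, with a median deviation of 0.51 on the log2 scale in replicate 1 against -0.14 in replicate 3. Of the genes with at least 10 CPM, 28.7% were highest in HG3 in replicate 1. In MEC2 and PCL12 replicate 3 was the highest for 6 and 9 of the 14 listed genes, against 39.95% and 43.6%. The immediate early genes, which encode transcription factors and their regulators that cells transcribe quickly after handling, were highest in replicate 3 for 11 of 15 with at least 10 CPM in HG3, but for 1 of 15 in MEC2 and 1 of 15 in PCL12. Their median deviation in replicate 3 was 0.39 in HG3, -0.74 in MEC2 and -0.52 in PCL12, where the 9 members with at least 10 CPM stood at 0.35, 0.95 and 0.48. In PCL12 the immediate early genes were highest in replicate 2 for 9 of 15, against 26.7% of the genes with at least 10 CPM. HSPA1A, HSPA1B and DNAJB1 were highest in replicate 2 of PCL12 in both treatments.

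The genes of metal and oxidative stress were highest in replicate 3 for 5 of 6 in HG3, 1 of 6 in MEC2 and 1 of 6 in PCL12. All 8 genes of the mitochondrial list, which also holds the protease genes LONP1 and CLPP, were highest in replicate 3 in PCL12. In MEC2 these were 7 of 8 and in HG3 3 of 8. The list of HSF1, HSF2, HSF4, HSBP1, HSPBAP1 and the collagen chaperone SERPINH1 was highest in replicate 2 for 6 of 6 genes in HG3, where the unstimulated library of that number is rich in mitochondrial counts, and the part of that library was not tested. The share of genes with at least 10 CPM that were highest in this replicate was 27.4%.

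After CpG, 0 of 18 immediate early genes and 0 of 10 genes of metal and oxidative stress were called in each line by edgeR, and 0 of each at an unadjusted p under 0.05. Over all genes edgeR called 0.00314%, 0.00314% and 0% in HG3, MEC2 and PCL12, and 3.73%, 2.46% and 2.09% at the unadjusted threshold. For lists of this size, 0 calls lie near these shares.

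Between the unstimulated lines, some genes of the other stress lists passed the threshold (edgeR with Benjamini-Hochberg adjustment). In MEC2 against HG3 these were 2 of 18 immediate early genes, 2 of 10 of metal and oxidative stress, 1 of 14 genes of the endoplasmic reticulum list, 2 of 6 of the list with the heat shock factors (HSF4 and SERPINH1) and 0 of 8 genes of the mitochondrial list, against 9.78% of all genes. In PCL12 against HG3 they were 2 of 18, 0 of 10, 1 of 14, 1 of 6 and 0 of 8, against 9.44%. In PCL12 against MEC2 they were 0, 0, 0, 1 (SERPINH1) and 0, against 2.05%. IER3, an immediate early gene, had a Log2FC of -2.10 (SE 0.38, adjusted p = 0.000335) in MEC2 and of -3.33 (SE 0.40, adjusted p = 1.6e-06) in PCL12 against HG3. JUNB had -1.44 (adjusted p = 0.0075) and -1.13 (adjusted p = 0.0388) in the same comparisons. The metallothioneins MT2A and MT1X, which bind zinc and copper, had -2.65 (adjusted p = 0.00981) and -1.74 (adjusted p = 0.0348) in MEC2 against HG3. SERPINH1, also known as HSP47, had -2.03 (adjusted p = 5.79e-05) in MEC2 against HG3 and 1.94 (adjusted p = 0.000496) in PCL12 against MEC2, as HSPB1 had -2.41 and 1.55. HSF4, a heat shock factor, had -2.44 (adjusted p = 0.00752) in MEC2 and -2.25 (adjusted p = 0.0133) in PCL12 against HG3. Of the endoplasmic reticulum list, the disulfide isomerases PDIA3, with 0.97 (adjusted p = 0.0178) in MEC2, and PDIA6, with 1.23 (adjusted p = 0.012) in PCL12, were higher than in HG3. These comparisons share their unstimulated libraries.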
